A study of Mus musculus with 7 samples.

Results

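The genes described here are 34 genes of myelin and of the oligodendrocyte lineage, the cells that make myelin in the brain, measured by RNA-seq in mouse hippocampus. They were chosen by symbol, as genes known for the myelin sheath, for mature and newly formed oligodendrocytes and for their precursors, and all 34 were found among the 55416 gene identifiers of the count tables. By role they comprised 13 myelin sheath proteins, 9 enzymes and carriers of mature oligodendrocytes, 6 transcription factors, 3 genes of newly formed oligodendrocytes and 3 genes of precursor cells. The study asked how long-term dosing with ONX-0914, an inhibitor of the immunoproteasome, alters the hippocampus. The animals were age-matched males of the outbred CD1 strain, whose age the labels do not give. The control group (3 libraries) was left untreated. The DMSO group (2 libraries) was given the solvent alone in the same volume and on the same schedule as the inhibitor. The ONX-0914 group (2 libraries) was given 10 mg/kg into the peritoneum 2 times per week for 2 months. The labels do not say whether libraries of a group came from separate animals, so the p-values measure only the spread between these libraries.

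Oligodendrocytes arise from dividing precursor cells that carry the receptor Pdgfra and the proteoglycans Cspg4 and Vcan. The precursors leave the cell cycle, pass through a short premyelinating stage marked by Gpr17, Bcas1 and Enpp6, and then switch on the genes of the sheath under the transcription factors Olig2, Sox10 and Myrf. In the hippocampus myelin is sparse in the cell layers and dense in the alveus and fimbria, the fibre tracts at its edge, and neighbouring regions such as the thalamus hold more of it.

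Depth was 2842675 to 3877006 counts on genes in 6 libraries and 13782270 in ONX-0914 replicate 2. All 34 genes passed the filter on low counts, and the lowest count of any of them in any library was 5 (Enpp6 in control replicate 3). Values are CPM, the counts per 1000000 counts of library size, with library sizes scaled by the trimmed mean of M values. Both ONX-0914 libraries stood apart from the other 5. In ONX-0914 replicate 1 the summed level of 15 thalamus and midbrain markers was 1557 CPM against 133 to 186 CPM in the 5 libraries without the inhibitor, that of 10 striatum markers was 1384 against 236 to 273 CPM, and those of 6 dentate granule cell and 5 CA1 markers were 98.7 and 189 CPM against 258 to 372 and 512 to 610 CPM. At least 1 count was present for every one of the thalamus and midbrain markers in that library, among them Irx2 and Pax7, both at 0 in the other libraries apart from 0.07 CPM of Irx2 in ONX-0914 replicate 2. The 5 blood markers summed to 96.0 and 833 CPM in ONX-0914 replicates 1 and 2, against 29.9 to 46.2 CPM without the inhibitor. Mitochondrially encoded genes took 3.71% of counts in replicate 2 against 0.82% to 1.59% in the other 6. In replicate 2 the 8 neocortex markers summed to 543 CPM against 333 to 468 CPM, with 7 of 8 above the control mean. The 5 CA3 markers summed to 119 and 209 CPM in replicates 1 and 2 against 239 to 252 CPM. The part that tissue composition plays in the values of the lineage genes was not tested.

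**Figure D1:**
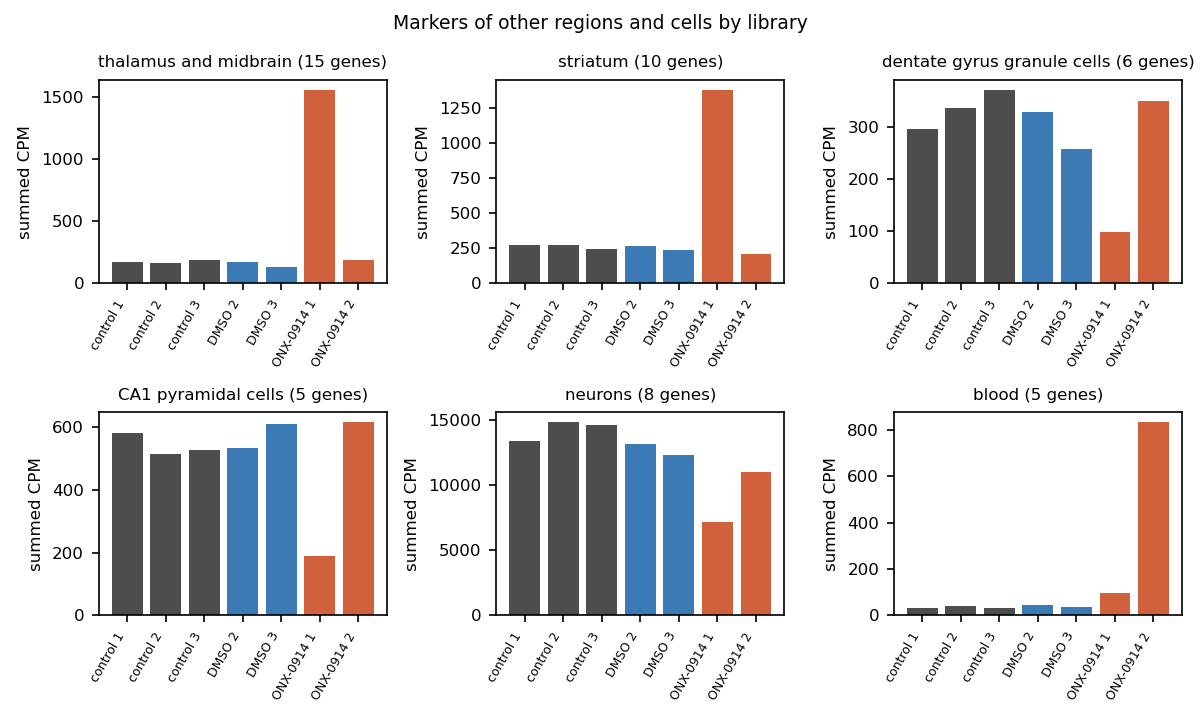
Summed CPM of 6 marker lists in each of the 7 libraries (bars from 0; grey control, blue DMSO, orange ONX-0914). Thalamus, midbrain and striatum markers are highest in ONX-0914 replicate 1, where dentate gyrus, CA1 and neuronal markers are lowest, and blood markers reach 833 CPM in ONX-0914 replicate 2.

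Levels of the members in untreated hippocampus, compared per kilobase of merged exon, spanned a wide range. Mbp, the basic protein that holds the cytoplasmic faces of the sheath together, was the highest at 325 ± 58.3 CPM per kilobase (SD, n = 3). Mobp, another basic protein of compact myelin, followed at 275 ± 79.6 CPM per kilobase, within the spread of Mbp. Qdpr, which recycles tetrahydrobiopterin and is abundant in mature oligodendrocytes, Mal, a lipid raft protein of the sheath, and Bcas1 came next at 173 ± 8.85, 165 ± 41.1 and 164 ± 23.1 CPM per kilobase, and these 3 did not differ beyond their spread. At the lower end Cspg4, Vcan and Enpp6 stood at 1.45 ± 0.33, 1.09 ± 0.11 and 0.47 ± 0.25 CPM per kilobase. Merged exons of Mbp and Mobp (8469 and 6849 bases) exceed their longest transcripts (4797 and 3286 bases). The order of the highest genes therefore depends on the length used. Mbp and Mobp together made up 56.0% of the CPM of all 34 genes in the controls, so sums over the list mostly follow these 2 genes.

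None of the 34 genes passed an adjusted p of 0.05 in any of the 3 comparisons. With edgeR's quasi-likelihood test, 15 of 13152 genes tested (0.114%) passed for ONX-0914 against control, 2 (0.0152%) for DMSO against control and 6 (0.0456%) for ONX-0914 against DMSO. At an unadjusted p under 0.05 the members numbered 4, 4 and 2 of 34 in the same order, where 18.6%, 2.65% and 14.7% of all genes tested had such a p, and DESeq2 called 0 of them in all 3. The median log2 fold change of the 34 genes was 0.17 for ONX-0914 against control (28 above 0 and 6 below), beside 0.05 for all genes tested. It was 0.17 for DMSO against control (25 above 0 and 9 below), beside 0.00 for all genes. For ONX-0914 against DMSO it was 0.12 (22 above 0 and 12 below), beside 0.05. Both tallies for ONX-0914 turned with the libraries used: without ONX-0914 replicate 1, 13 genes were above 0 and 21 below against control, and 11 above and 23 below against DMSO. With the replicate number as a block they were 19 above and 15 below against control, and 9 above and 25 below against DMSO. The 3 comparisons share libraries and are not independent of each other.

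**Figure D2:**
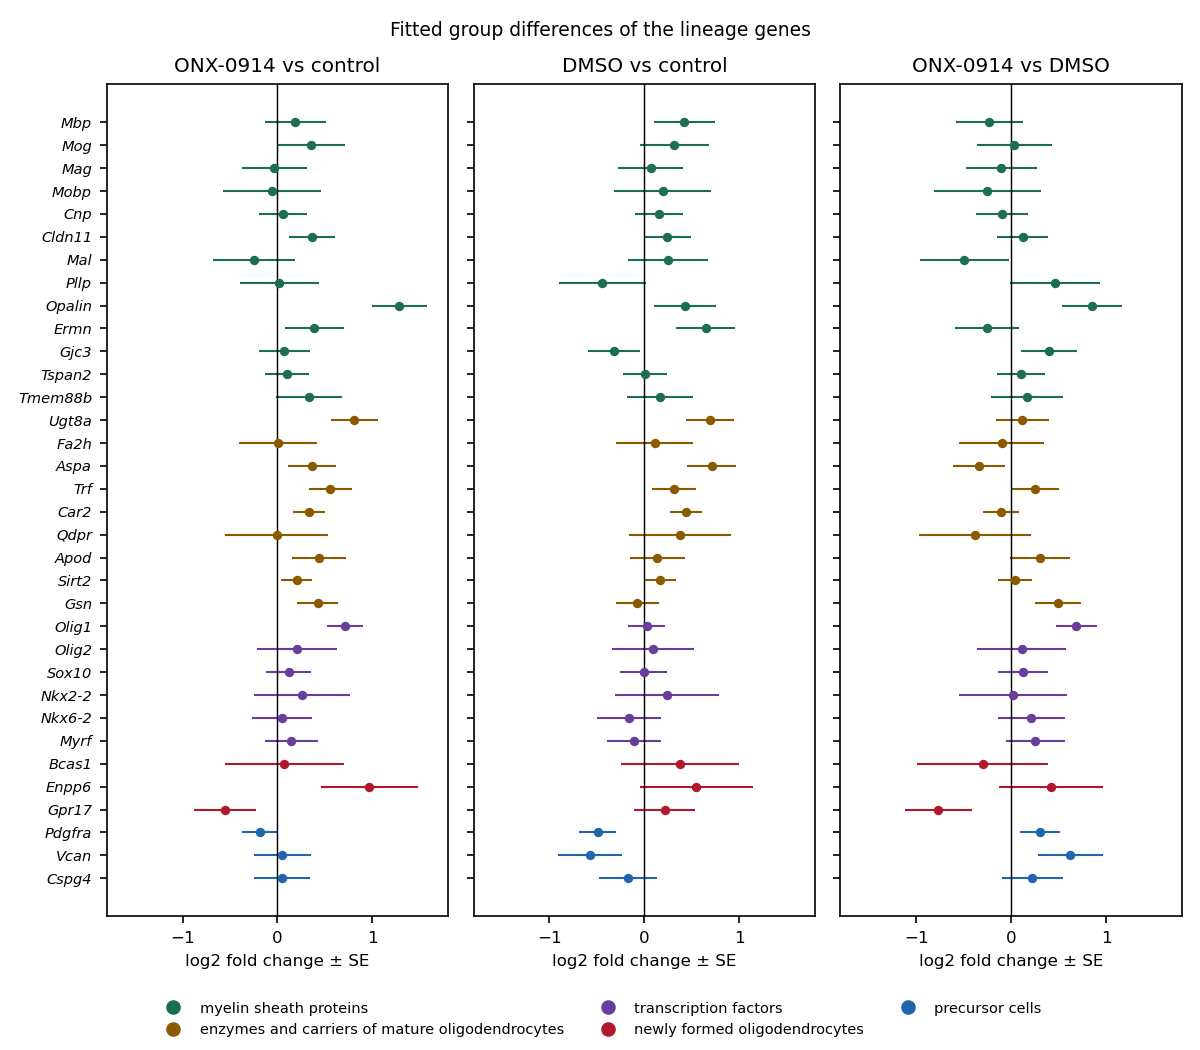
Fitted log2 fold change with its standard error (SE) for each of the 34 genes in the 3 comparisons, coloured by role (edgeR, 3 control, 2 DMSO and 2 ONX-0914 libraries). No gene passed the adjusted threshold; Opalin, at 1.28 in ONX-0914 against control, lies farthest from 0.

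The 2 ONX-0914 libraries disagreed over the lineage genes. In ONX-0914 replicate 1, 22 of the 34 genes stood above all 5 libraries without the inhibitor and 0 below them, where 27.9% of all genes tested stood above and 25% below. In ONX-0914 replicate 2, 8 stood above and 12 below, where 34.7% of all genes stood above and 33.6% below. For 10 of the 34 genes replicate 1 lay above and replicate 2 below all 5 others (8.19% of all genes did so): 6 sheath proteins, Fa2h, Qdpr, Olig2 and Bcas1. The median log2 difference of the members from the control mean was 0.46 in replicate 1, with 31 of 34 above it, and -0.31 in replicate 2, with 13 of 34 above it. The members also scattered more widely in replicate 2, where the SD of this difference over the 34 genes was 0.78, than in any other library (0.14 to 0.43). For most sheath genes the group mean over these 2 libraries averaged shifts of opposite sign. Of the 9 enzymes and carriers, 7 were above the control mean in both libraries.

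**Figure D3:**
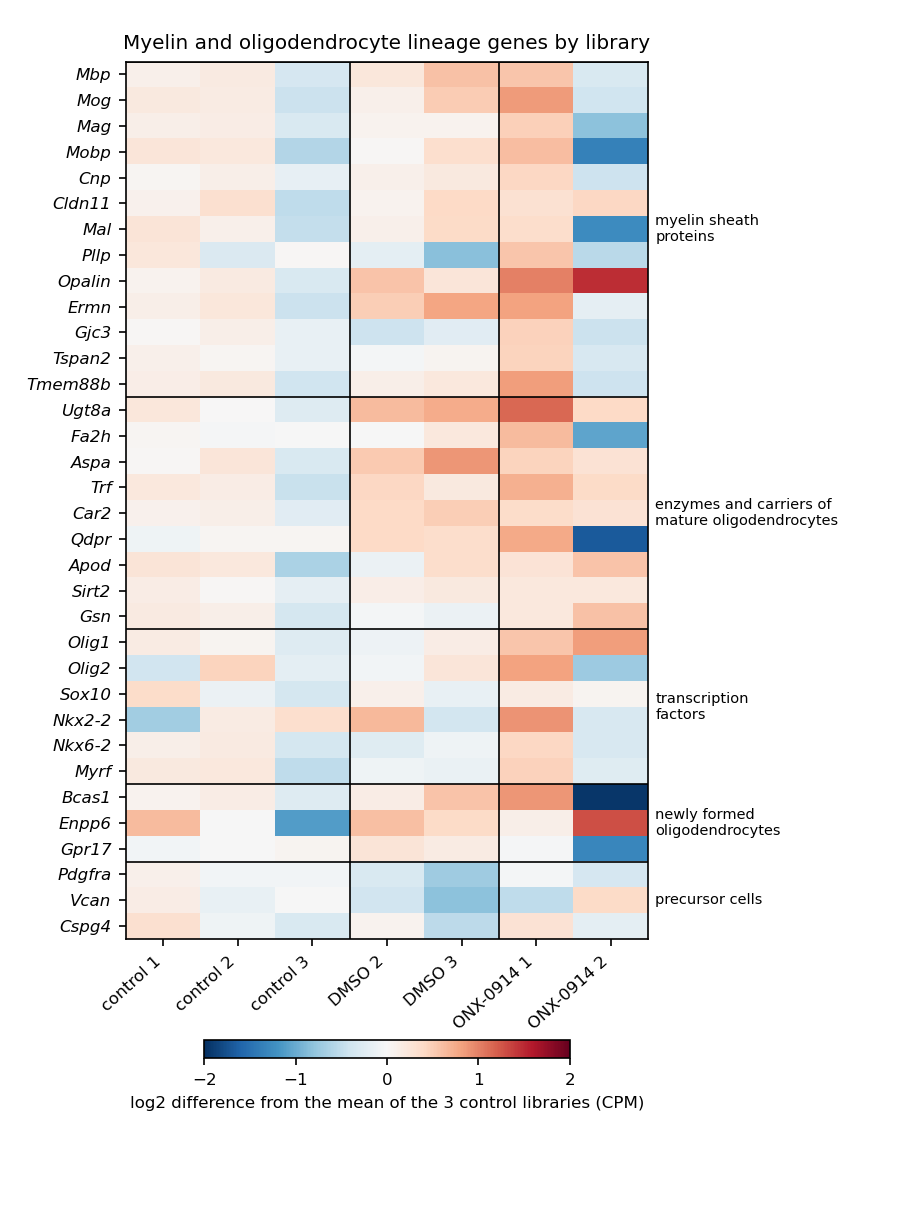
Log2 difference of each gene's CPM from the mean of the 3 control libraries (colour, red above and blue below), with genes in rows grouped by role and the 7 libraries in columns. ONX-0914 replicate 1 is red in 31 of 34 rows, and ONX-0914 replicate 2 ranges from -1.94 (Bcas1) to 1.47 (Opalin).

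Fitted without ONX-0914 replicate 2, so that replicate 1 stood alone for the group and was assumed to vary like the other groups, 16 members passed the adjusted threshold against control and all 16 were higher, among 19% of all genes. Fitted without ONX-0914 replicate 1, 18 passed, 6 higher and 12 lower, among 51.2% of all genes. These fits compare 1 library with the controls, and the share of all genes they call is the background for the members. Opalin, Ugt8a and Olig1 passed in both fits with the same sign. Mag, Mobp, Cnp, Tspan2, Tmem88b, Fa2h, Qdpr, Olig2 and Bcas1 passed in both with opposite signs.

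**Figure D4:**
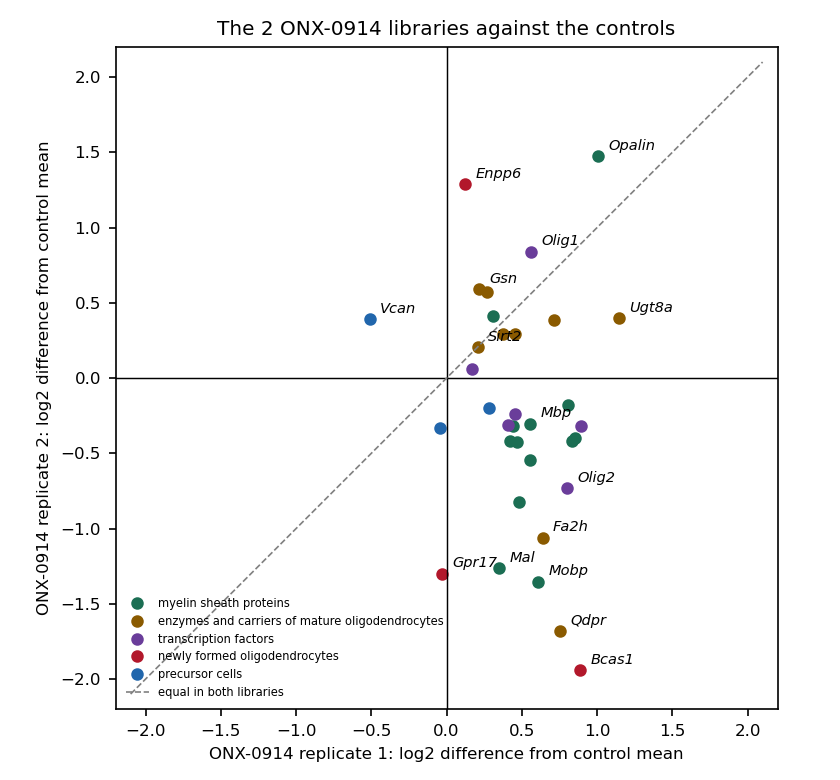
Each point is a gene, placed by its log2 difference from the control mean in ONX-0914 replicate 1 (horizontal) and replicate 2 (vertical), coloured by role, with a dashed line where both agree. Most sheath proteins lie at the lower right, higher in replicate 1 and lower in replicate 2, while Opalin, Olig1, Gsn and Ugt8a are above the control mean in both.

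The myelin sheath proteins showed this split. Their summed level was 6989, 7065 and 4742 CPM in the 3 controls, 6891 and 8489 CPM with DMSO, and 9200 and 4073 CPM in ONX-0914 replicates 1 and 2. The 2 treated libraries were the highest and the lowest of all 7. Mbp stood at 2964, 3098 and 2183 CPM in control replicates 1, 2 and 3, at 3226 and 4127 CPM in DMSO replicates 2 and 3, and at 4044 and 2227 CPM in ONX-0914 replicates 1 and 2. Its log2 fold change with ONX-0914 against control was 0.19 ± 0.32 (SE, adjusted p = 0.767). Both ONX-0914 values lay within the range spanned by the other libraries.

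Mobp stood at 2225, 2176 and 1258 CPM in the controls, 1921 and 2390 CPM with DMSO, and 2880 and 739 CPM with ONX-0914. The treated libraries lay above and below all others, 3.90-fold apart, and the group difference was -0.06 ± 0.52 on the log2 scale (adjusted p = 0.959). Mal stood at 551, 494 and 331 CPM in the controls, 492 and 598 CPM with DMSO, and 583 and 191 CPM with ONX-0914, a log2 fold change of -0.25 ± 0.43 (adjusted p = 0.772). Replicate 2 held the lowest value of both genes. The ratio of Mbp to Mobp in CPM was 1.33 to 1.74 in the 5 libraries without the inhibitor and 1.40 in ONX-0914 replicate 1, but 3.02 in replicate 2, so the 2 most abundant sheath genes did not move in step there.

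Opalin, a sialylated membrane protein specific to oligodendrocytes, was higher in both. It stood at 6.03, 6.51 and 4.66 CPM in the controls (17 to 24 counts), 8.55 and 6.75 CPM with DMSO, and 11.5 and 15.9 CPM with ONX-0914 (46 and 242 counts). Both treated libraries were above all 5 others, and DMSO was above all controls. The log2 fold change was 1.28 ± 0.29 against control (adjusted p = 0.108, unadjusted p = 0.00205) and 0.85 ± 0.32 against DMSO (adjusted p = 0.285). Without the filter on low counts it passed against control (adjusted p = 0.0340), where 2.15% of all genes did.

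The remaining 9 sheath genes had log2 fold changes between -0.03 (Mag) and 0.39 (Ermn) against control, none past the threshold (adjusted p 0.439 to 0.985). Mag and Mog, adhesion proteins on the inner and outer faces of the sheath, Cnp, an enzyme of non-compact myelin, Gjc3, a connexin, and Tspan2, a tetraspanin, were all 1.69 to 2.46-fold higher in ONX-0914 replicate 1 than in replicate 2. Cldn11, the tight junction protein of myelin, was similar in both at 125 and 134 CPM, against 70.5 to 125 CPM in the controls. Of the 13 sheath genes, Opalin alone stood above all controls in both treated libraries. For the whole list 9 genes did so and 0 stood below, where 16.9% of all genes stood above and 16.3% below.

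The promoter windows of Opalin and Mobp are shown because these 2 sheath genes parted most in ONX-0914 replicate 2. Each is the 250 bases before the RefSeq start, 5′ to 3′ along the gene, in GRCm38.p6 (Opalin, minus strand, chr19:41077114-41077363; Mobp, plus strand, chr9:120149492-120149741), with motif matches in capitals.
Opalin: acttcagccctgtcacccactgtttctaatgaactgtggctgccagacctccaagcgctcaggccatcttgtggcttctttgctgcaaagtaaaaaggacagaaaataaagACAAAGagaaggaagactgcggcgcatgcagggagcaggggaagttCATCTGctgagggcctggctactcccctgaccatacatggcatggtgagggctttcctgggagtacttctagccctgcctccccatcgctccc
Mobp: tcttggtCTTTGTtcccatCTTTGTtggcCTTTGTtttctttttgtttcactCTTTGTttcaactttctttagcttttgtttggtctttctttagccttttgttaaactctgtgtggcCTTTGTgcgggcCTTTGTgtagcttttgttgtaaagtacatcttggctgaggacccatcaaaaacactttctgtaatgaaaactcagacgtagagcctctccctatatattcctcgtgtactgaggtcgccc
The motifs were the SOX core ACAAAG or ACAATG, the E-boxes CAGCTG and CATCTG used by OLIG and related proteins, the MYRF core CTGGCAC and the TATA box TATAAA, each on both strands; either E-box can share its last 3 letters with the MYRF core. In these 250 bases the Mobp window held 6 SOX matches and none of the others, and the Opalin window 1 SOX match and 1 E-box. In the 300-base windows, which also take in the 50 bases after the start, 25 of the 34 genes had an entry (30 windows). A SOX core was in 12 of their windows, beside 28.6% of all 32851 windows, the E-box CATCTG in 33.3% of the members' windows against 17.2%, the E-box CAGCTG in 16.7% against 16.3%, the MYRF core in 13.3% against 5.01% and the TATA box in 6.67% against 13.6%. The 12 windows with a SOX core came from 11 genes, and the 4 with the MYRF core from 3 (Cnp, Mag and Opalin). Overlapping Mag windows hold the same SOX and MYRF matches, so these are counted in both. The 300-base Opalin window held the MYRF core and the E-box CAGCTG, which its 250 bases before the start did not. These are letter matches in a short window and show no binding.

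Of the 9 enzymes and carriers of mature oligodendrocytes, 7 stood above all controls in both ONX-0914 libraries (Ugt8a, Aspa, Trf, Car2, Apod, Sirt2 and Gsn), beside the 16.9% of all genes given above. Their median log2 fold change against control was 0.37. Ugt8a, which makes the galactolipids of myelin, stood at 46.9, 40.2 and 33.5 CPM in the controls, 62.5 and 67.2 CPM with DMSO, and 88.7 and 52.9 CPM with ONX-0914. All 4 injected libraries were above all 3 controls. The log2 fold change was 0.81 ± 0.25 for ONX-0914 against control (adjusted p = 0.167, unadjusted p = 0.0115) and 0.69 ± 0.25 for DMSO against control (adjusted p = 0.9999), with 0.12 ± 0.28 between ONX-0914 and DMSO.

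Trf, the iron carrier transferrin, stood at 231, 222 and 148 CPM in the controls, 267 and 230 CPM with DMSO, and 328 and 262 CPM with ONX-0914, a log2 fold change of 0.56 ± 0.23 (adjusted p = 0.246). A second annotated gene shares 2108 exon bases with Trf on the same strand, but that gene was not among the identifiers counted. Car2, the carbonic anhydrase of oligodendrocytes, stood at 146, 148 and 118 CPM in the controls, 180 and 192 CPM with DMSO, and 178 and 168 CPM with ONX-0914. Both injected groups lay above the controls, and both ONX-0914 libraries lay below both DMSO libraries (log2 fold change 0.33 ± 0.17 for ONX-0914 against control, adjusted p = 0.319, and -0.11 ± 0.19 against DMSO, adjusted p = 0.786). Gsn, an actin-severing protein, stood at 41.5, 39.6 and 28.8 CPM in the controls, 35.8 and 33.8 CPM with DMSO, and 42.6 and 55.1 CPM with ONX-0914. Sirt2, a tubulin deacetylase of myelin, stood at 74.0 to 92.6 CPM in the controls, 91.6 and 96.3 CPM with DMSO, and 96.7 and 96.6 CPM with ONX-0914. Its log2 fold change against DMSO was 0.04 ± 0.18 (edgeR adjusted p = 0.920).

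Qdpr and Fa2h, the hydroxylase for myelin sphingolipids, followed the sheath genes instead. Qdpr stood at 291, 318 and 318 CPM in the controls, 406 and 395 CPM with DMSO, and 521 and 96.4 CPM with ONX-0914. The treated libraries were 5.41-fold apart on either side of all the others, and the group difference was -0.01 ± 0.54 on the log2 scale (adjusted p = 0.996). Fa2h was 113 and 34.8 CPM in the same libraries against 71.1 to 84.2 CPM elsewhere.

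Over the whole list, Opalin, Sirt2, Gsn and Olig1 stood above all 5 other libraries in both ONX-0914 libraries and none stood below, that is 4 and 0 of 34, where 11.3% of all genes stood above and 11.4% below. The share of the members above was thus close to the background. Sirt2 was among them by a narrow margin, at 96.6 CPM in ONX-0914 replicate 2 against 96.3 CPM in DMSO replicate 3.

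Among the transcription factors, Olig1 and Olig2 are paired basic helix-loop-helix factors of the lineage encoded side by side. Olig1 was higher in both treated libraries, while Olig2 was split between them. Olig1 stood at 77.0, 71.9 and 57.9 CPM in the controls, 64.1 and 76.1 CPM with DMSO, and 102 and 123 CPM with ONX-0914. Both treated libraries were the highest of the 7, and the log2 fold change was 0.71 ± 0.19 against control (adjusted p = 0.140) and 0.69 ± 0.21 against DMSO (adjusted p = 0.232). Olig2 stood at 45.1, 79.5 and 51.0 CPM in the controls, 56.1 and 69.3 CPM with DMSO, and 102 and 35.2 CPM with ONX-0914. Its treated values enclosed all the others, with a log2 fold change of 0.21 ± 0.42 (adjusted p = 0.810).

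Myrf, the factor that switches on the myelin genes, stood at 72.8, 73.8 and 45.0 CPM in the controls, 60.1 and 57.9 CPM with DMSO, and 87.7 and 54.1 CPM with ONX-0914 (log2 fold change 0.14 ± 0.28, adjusted p = 0.798). Sox10, which acts with it, was 23.9 to 39.0 CPM in the controls and 34.1 and 31.5 CPM with ONX-0914, with overlap in every comparison. Nkx2-2 and Nkx6-2, homeodomain factors of oligodendrocyte maturation, were low (2.84 to 13.03 CPM), and Nkx6-2 shares 246 exon bases with the opposite-strand gene Inpp5a. The summed level of the 6 factors was 191 to 270 CPM without the inhibitor and 347 and 256 CPM in ONX-0914 replicates 1 and 2.

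The genes of newly formed oligodendrocytes were 6.22-fold apart between the treated libraries in their summed level (1211 and 195 CPM), the widest gap of the 5 role groups. Bcas1 made up most of both sums, Gpr17 was 2.41-fold apart, and Enpp6 was lower in replicate 1 than in replicate 2. Bcas1, a marker of early myelinating cells, stood at 652, 684 and 519 CPM in the controls, 684 and 921 CPM with DMSO, and 1144 and 161 CPM with ONX-0914. The treated libraries were the highest and the lowest of the 7, 7.10-fold apart, so the log2 fold change of 0.07 ± 0.63 (adjusted p = 0.960) had the largest SE of any member. Gpr17, a receptor of the premyelinating stage, stood at 62.8, 64.3 and 67.7 CPM in the controls, 78.0 and 72.9 CPM with DMSO, and 63.6 and 26.4 CPM with ONX-0914. Replicate 1 was within the controls and replicate 2 was the lowest of all (log2 fold change -0.55 ± 0.33 against control, adjusted p = 0.386, and -0.77 ± 0.36 against DMSO, adjusted p = 0.354). Enpp6, a choline phosphodiesterase of the same stage, went the other way in replicate 2, with 4.61, 2.99 and 1.37 CPM in the controls, 4.54 and 3.91 CPM with DMSO, and 3.26 and 7.30 CPM with ONX-0914 (log2 fold change 0.97 ± 0.51, adjusted p = 0.339). It rested on 5 to 17 counts outside ONX-0914 replicate 2, which held 111.

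No precursor gene passed the threshold with ONX-0914. Pdgfra, the growth factor receptor that defines these cells, stood at 78.4, 70.3 and 70.8 CPM in the controls, 59.0 and 44.8 CPM with DMSO, and 70.9 and 58.2 CPM with ONX-0914 (log2 fold change -0.18 ± 0.19, adjusted p = 0.617). Cspg4, the NG2 proteoglycan, stood at 21.7, 16.3 and 13.99 CPM, 18.2 and 12.1 CPM, and 21.0 and 15.1 CPM in the same order (0.05 ± 0.29, adjusted p = 0.942). Vcan, the proteoglycan versican, stood at 17.4, 14.1 and 15.6 CPM, 12.02 and 8.88 CPM, and 11.02 and 20.6 CPM (0.05 ± 0.30, adjusted p = 0.938). Vcan parted between the treated libraries, lying 0.51 below the control mean on the log2 scale in replicate 1 and 0.39 above it in replicate 2, where it exceeded all 5 libraries without the inhibitor, while Pdgfra and Cspg4 were lower in replicate 2 than in replicate 1. The 3 genes together summed to 103 and 93.8 CPM with ONX-0914, beside 65.7 to 117 CPM in the other 5, and were the only role group whose treated libraries lay within 1.10-fold of each other, a sum in which these opposite differences offset. Pdgfra and Cspg4 are also expressed by perivascular cells, and endothelial and mural markers summed to 392 and 376 CPM with ONX-0914 against 227 to 295 CPM elsewhere.

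**Figure D5:**
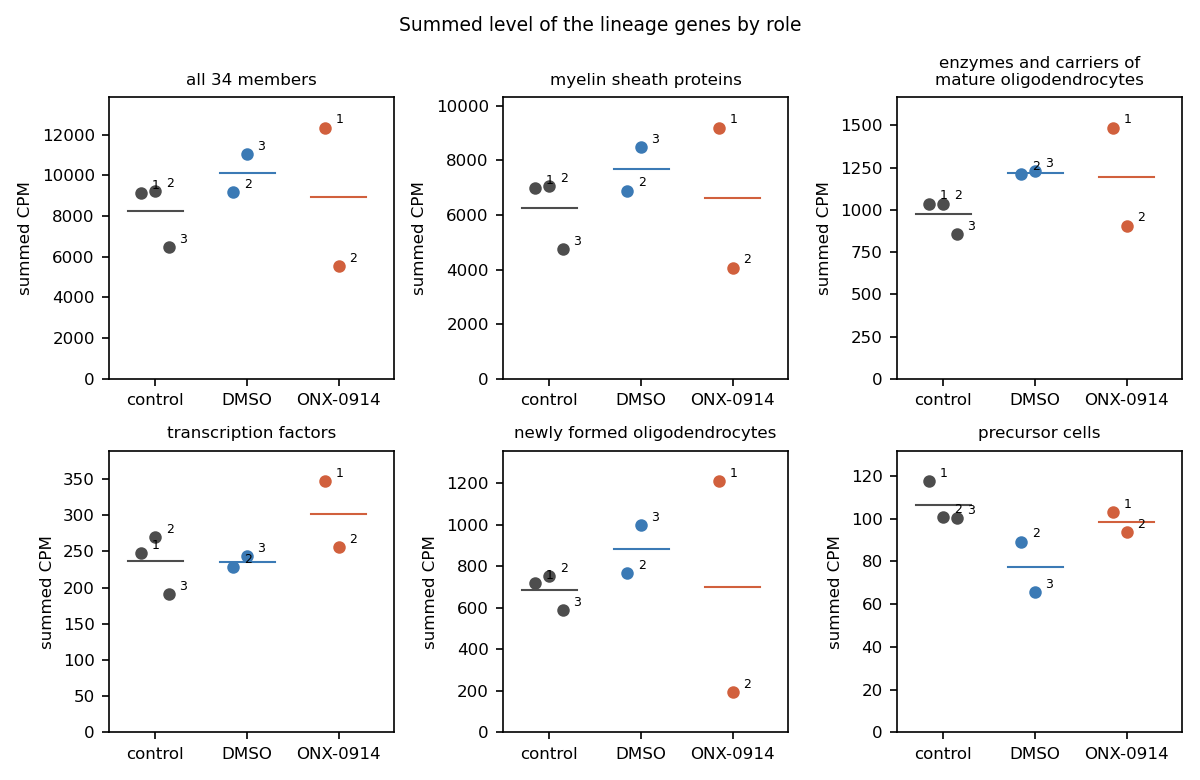
Summed CPM of all 34 genes and of each role group in the 7 libraries (points, numbered by replicate; horizontal lines are group means; each axis starts at 0). ONX-0914 replicate 1 lies above and replicate 2 below all other libraries for the sheath and newly formed groups, and precursor sums are lowest with DMSO.

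Between DMSO and control, several genes of mature cells had higher values and the 3 precursor genes lower ones. None passed the adjusted threshold in the reported fit (adjusted p = 0.9999 for every member, edgeR). That fit estimated the spread of each gene over all 7 libraries, the ONX-0914 libraries included. With only the DMSO and control libraries fitted, Ermn and Ugt8a passed (edgeR adjusted p = 0.0366 and 0.0209), where 1.11% of all genes did. Without control replicate 1 or DMSO replicate 3, or with the replicate block, 1 of these 3 precursor genes was higher and 2 lower. Of 23 further precursor genes and regulators tested, 11 were higher and 12 lower, with a median log2 fold change of -0.005. Of the 34 genes 8 stood above all controls in both DMSO libraries and 3 below, where 15.7% of all genes stood above and 15% below. Those above were Mbp, Opalin, Ermn, Ugt8a, Aspa, Car2, Qdpr and Gpr17. Aspa, which cleaves N-acetylaspartate to supply acetate for lipid synthesis, stood at 11.7, 13.6 and 9.32 CPM in the controls and 16.6 and 21.3 CPM with DMSO, a log2 fold change of 0.71 ± 0.26. Ermn, a cytoskeletal protein of the sheath, stood at 88.0, 94.2 and 60.3 CPM and 114 and 139 CPM, a log2 fold change of 0.65 ± 0.31. Those below were Gjc3, Pdgfra (-0.49 ± 0.19) and Vcan (-0.57 ± 0.33), while Cspg4 overlapped the controls (-0.17 ± 0.31).

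The ratio of summed sheath to summed precursor CPM set these groups against each other within a library. It was 59.5, 70.2 and 47.2 in the controls, 77.2 and 129 with DMSO, and 89.4 and 43.4 with ONX-0914. Both DMSO libraries exceeded the controls, and the ONX-0914 libraries lay on either side of them. In bulk tissue fewer cells of a type and less RNA per cell cannot be told apart.

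Control replicate 3 held the lowest of the 3 control values for 26 of the 34 genes, with a summed level of 6478 CPM against 9111 and 9224 CPM in the other controls. Without it the median log2 fold change of the members was 0.05 for DMSO against control in place of 0.17, and 20 of 34 genes in place of 25 lay above 0. Against its vehicle, ONX-0914 showed 7 sheath genes higher and 6 lower, all 6 transcription factors higher, and all 3 precursor genes higher (Vcan 0.62 ± 0.35, adjusted p = 0.410), none past the threshold. With the replicate block 3 sheath genes, 1 transcription factor and 2 precursor genes were higher against DMSO, and without ONX-0914 replicate 1 these counts were 2, 2 and 2, with Olig2 at -0.83.

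A wider list of lineage genes that are not among the 34 was read from the same fit. Of 35 further genes of mature oligodendrocytes and myelin 34 were tested and 0 passed in any comparison by edgeR (3, 2 and 0 had an unadjusted p under 0.05, beside the 18.6%, 2.65% and 14.7% of all genes given above), with 28 higher and 6 lower for ONX-0914 against control and a median log2 fold change of 0.21. Their 3 most abundant genes were Plekhb1 (566 CPM over all libraries), Tppp, a tubulin polymerization protein (493 CPM), and Tubb4a, a tubulin (432 CPM), with log2 fold changes of 0.19, -0.07 and 0.39. In ONX-0914 replicate 1, 22 of these 34 stood above all 5 other libraries and 1 below, where 27.9% of all genes stood above and 25% below. In replicate 2, 8 stood above and 12 below, where 34.7% of all genes stood above and 33.6% below. The counts above in both replicates, and below in replicate 2, equalled those of the 34 members. Of 24 precursor genes and regulators 23 were tested and 0 passed (6, 0 and 4 had an unadjusted p under 0.05, beside the same shares of all genes), and for ONX-0914 against control 14 were higher and 9 lower. Their most abundant genes were Ptprz1, a receptor phosphatase of precursors (0.21), Zeb2, a factor that promotes maturation (-1.02, adjusted p = 0.133), and Lingo1, an inhibitor of differentiation (0.85, adjusted p = 0.379).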

How the data were processed

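Total RNA from hippocampus was sequenced in 7 libraries made with a directional kit. The deposited files hold raw read counts per gene for each library, made by the authors. Per the labels the submitters' processing notes name Trimmomatic 0.39, STAR 2.7.3a, featureCounts 2.00 and GRCm39, and the strand setting and annotation are not given in the sources used here. Reads not assigned to a gene (8.57% to 10.4%) were left out. Gene symbols, merged exon lengths and overlapping exons came from GENCODE M21 (GRCm38), which names 52083 of the 55416 identifiers; promoter windows came from RefSeq (GRCm38.p6), and no coordinate was taken across builds. The 34 genes and all lists were chosen with earlier results of these data known.

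Counts were filtered with filterByExpr, leaving 13152 genes, scaled by the trimmed mean of M values and fitted with edgeR 4.0.16 in R 4.3.3 (glmQLFit, glmQLFTest, 1 mean per group, all 7 libraries), with Benjamini-Hochberg adjustment over all genes tested and a threshold of 0.05. SDs are over libraries of a group and SEs from the fit. Libraries of a group were compared by chi-square of their counts: the statistic was 2.63 to 3.40 per degree of freedom within controls and DMSO and 84.9 between the ONX-0914 libraries, so none was counted as a repeat. The fit was tested on simulated counts with known fold changes. Genes named with full values were the 3 most abundant of each role, the 4 with the largest fold changes with ONX-0914 and any called; Gsn and Sirt2, and those named for the comparisons with DMSO, were chosen after their values were seen. Alternatives were DESeq2 1.42.0, limma 3.58.1 (voom), other scalings and filters, other sets of libraries, a replicate block and leaving out each library. The earlier form of the edgeR fit was added after seeing the data.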

Additional observations from a re-analysis of the deposited data

How the results depend on the processing

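Results were recomputed under 18 other settings for ONX-0914 against control and 17 for the other comparisons. No member was called in any comparison with DESeq2, RLE size factors, total counts, at least 10 counts in every library, limma voom, mitochondrially encoded genes left out, the earlier form of the edgeR fit, the replicate block or, for ONX-0914, all 5 other libraries as reference. Without the filter on low counts 1 member (Opalin) was called for ONX-0914 against control. With only the groups compared, 2 members (Ermn and Ugt8a) were called for DMSO against control, where 1.11% of all genes were. Leaving out 1 library at a time, members called ranged from 0 to 18 for ONX-0914 against control, 0 to 2 for DMSO against control and 0 to 17 for ONX-0914 against DMSO; every call came from leaving out ONX-0914 replicate 1 or replicate 2. Of all genes these 2 settings called 51.2% and 19% for ONX-0914 against control, 0.926% and 1.07% for DMSO against control, and 46% and 17.1% for ONX-0914 against DMSO. Over all genes, calls for ONX-0914 against control numbered 15 in the reported fit, 388 with DESeq2, 578 without the filter, 343 against the 5 other libraries together, 3 with only the groups compared and 1 with the replicate block. Calls for DMSO against control numbered 2 in the reported fit, 9 with DESeq2, 11 without the filter and 141 with only the groups compared, and calls for ONX-0914 against DMSO 6, 245, 297 and 0.

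Leaving out ONX-0914 replicate 1 or 2 changed the direction of 20 of the 34 genes against control (reported log2 fold changes -0.25 to 0.39) and of 21 against DMSO (-0.50 to 0.46). Leaving out another library changed 12 and 7, and the settings other than these and the replicate block changed 8 and 7; for DMSO against control, leaving out a control or DMSO library changed 12. With total counts, where the median of all genes was 0.19 in place of 0.05, Mobp was at 0.049 and Qdpr at 0.10, and precursor genes summed to 105 CPM in the ONX-0914 group. Qdpr was at 0.011 with at least 10 counts in every library. Bcas1 was at -0.39 with limma voom and at -0.088 against the 5 other libraries together. Without 1 library in turn, the log2 fold change ranged from -0.31 to 0.55 for Mbp, -1.36 to 0.61 for Mobp, -1.27 to 0.35 for Mal, -1.69 to 0.75 for Qdpr, -0.76 to 0.78 for Olig2, -0.24 to 0.46 for Myrf, -1.95 to 0.88 for Bcas1, -0.50 to 0.39 for Vcan and -0.19 to 0.30 for Cspg4. In each of these the ends came from leaving out ONX-0914 replicate 1 and replicate 2. The median of the members for DMSO against control ranged from 0.052 without control replicate 3 to 0.27 without control replicate 2.

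Replicate numbers are shared between groups, but the deviations of same-numbered libraries from their group means correlated by -0.107 to 0.071, so the numbers were not taken to pair the libraries. With the replicate number as a block, 0 members were called, 9 members changed direction for ONX-0914 against control and 13 for ONX-0914 against DMSO, the median of the members for DMSO against control was 0.31, and Myrf, Bcas1, Vcan and Cspg4 were at -0.035, -0.61, -0.055 and -0.13 for ONX-0914 against control.

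With 2 or 3 libraries a group, and 2 treated libraries that differ from each other by more than any other pair within a group, SEs of the members reached 0.63 on the log2 scale for ONX-0914 against control. At the lowest depth 3 counts correspond to 1.07 CPM, so Enpp6, Nkx2-2 and Pllp have the least counting precision.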

Other observations

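Among the lineage genes outside the 34, Lhfpl3 and Pcdh15, both enriched in oligodendrocyte precursor cells, were higher in both ONX-0914 libraries than in the other 5. They were picked out after their values were seen. Of the 23 precursor genes and regulators tested, 4 stood above and 2 below those 5 libraries in both ONX-0914 libraries. Of all genes tested, 11.3% stood above and 11.4% below. Lhfpl3 stood at 4.66 to 7.46 CPM in the 5 libraries without the inhibitor and at 17.04 and 11.8 CPM with it, a log2 fold change of 1.30 against control (edgeR adjusted p = 0.109). Pcdh15, a protocadherin, stood at 5.61 to 9.24 CPM and at 23.6 and 14.9 CPM, a log2 fold change of 1.28 (adjusted p = 0.123). Pdgfra, Cspg4 and Vcan, the precursor genes of the main list, had no such pattern in the same libraries.

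Zeb2 went the other way, at 297 to 327 CPM in the 5 libraries without the inhibitor and at 109 and 203 CPM with it. Lingo1 stood at 94.2 to 117 CPM in those 5 and at 67.4 and 309 CPM in ONX-0914 replicates 1 and 2. Both genes are also expressed by neurons, whose 8 markers summed to 7183 and 10993 CPM with ONX-0914 against 12305 to 14871 CPM elsewhere. The most abundant of these markers was Camk2a, a kinase of excitatory neurons, at 2074 and 5304 CPM with ONX-0914 against 5701 to 7404 CPM elsewhere. Gad1, an enzyme of inhibitory neurons, went the other way, at 403 and 253 CPM against 184 to 244 CPM, as did Gad2 in replicate 1 (316 CPM against 84.2 to 141 CPM).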
